A study of Mus musculus with 14 samples.

Results

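The subunits of the mitochondrial oxidative phosphorylation complexes that are coded in the nucleus were followed in mouse liver over the first days after partial hepatectomy (PHx), an operation after which the remaining liver tissue regrows. Members were chosen by gene symbol, as probe sets with 1 symbol that names a subunit of complex I, II, III, IV or V, and each gene was represented by its probe set with the highest mean intensity. This gave 78 genes, with 147 probe sets, of 12393 genes named on the array: 33 of complex I, 4 of complex II, 8 of complex III, 16 of complex IV and 17 of complex V. Of these, 75 were bright enough to be tested. Cox6b2, Cox7a1 and Cox7c were not tested, because their mean intensity over all arrays was under 128.8.

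Total RNA was measured on 14 arrays with 1 colour, 2 of normal mouse liver and 2 each of liver 4, 8, 12, 36, 48 and 72 h after PHx. The labels give no strain, genotype, age or sex. The normal livers are the reference and no sham-operated group was analysed here, so the effects of the liver loss and of the operation as such cannot be told apart. Livers of 4 to 6 mice were pooled for an RNA extraction. The labels do not say that the 2 arrays of a time came from separate pools, so a p-value here rests on the spread of these samples alone, and that spread can be technical. In bulk tissue, fewer cells of a type and less RNA per cell cannot be told apart.

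Changes are differences of log2(intensity + 57) from normal liver with the standard error (SE) of a limma fit to all 14 arrays. Adjusted p-values (Benjamini-Hochberg) run over the 13576 probe sets tested, and a member was called where its adjusted p was under 0.05. Median intensity per array ran from 127.8 to 233.1. With 2 arrays a group, precision is limited by their number. Replicate arrays correlated at 0.91 to 0.97 across probe sets, which are not independent replicates. The arrays of normal liver differed in the members: relative to their mean, the median member stood at -0.13 on the first and 0.13 on the second, while the median of all probe sets tested stood at 0.08 and -0.08. For the pyruvate carboxylase control, the ratio of 5′ to 3′ probe sets was 0.0909 to 0.137 on 4 arrays (the second of 8, 12, 36 and 72 h, called the processing group) and 0.305 to 0.584 on the other 10. That name is a short label only: the group was set by a ratio under 0.2, and no label names a batch. The actin and Gapdh ratios were lowest on these arrays too (0.427 to 0.6 and 0.839 to 0.939, others 0.632 to 0.944 and 0.97 to 1.23). Processing and RNA quality cannot be told apart here. The labelled tissue was checked by 10 hepatocyte markers, all of which were above background on all 14 arrays.

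Oxidative phosphorylation makes most of the ATP of a resting hepatocyte. Complex I takes electrons from NADH and complex II from succinate, ubiquinone carries them to complex III, cytochrome c carries them on to complex IV, and complex IV passes them to oxygen. Complexes I, III and IV pump protons across the inner mitochondrial membrane, and complex V, the ATP synthase, lets them flow back and makes ATP. Several complex IV subunits exist as a form found in most tissues and a form of heart and skeletal muscle.

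Most members lay slightly below normal liver from 8 h on, and few changed by enough to be called. The median change of the 75 tested members was -0.06, -0.28, -0.20, -0.32, -0.29 and -0.17 after 4, 8, 12, 36, 48 and 72 h. Over all probe sets tested, the median was -0.00 at 4 h and 0.07 to 0.12 at the later times. The members with a change below 0 numbered 48, 66, 60, 66, 62 and 55 of 75 at these times, where 50.2%, 43.7%, 42.3%, 42.8%, 39.4% and 39.4% of all probe sets tested lay below 0. There were 50 of 75 members below normal liver at each of the 5 times from 8 h, against 19.3% of all probe sets tested. The 5 times share the same 2 normal arrays, so they are not independent results. Most members were also far brighter than the median probe set of an array (127.8 to 233.1). The shares over all probe sets were not matched for brightness, and its part in the difference was not tested.

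**Figure D1:**
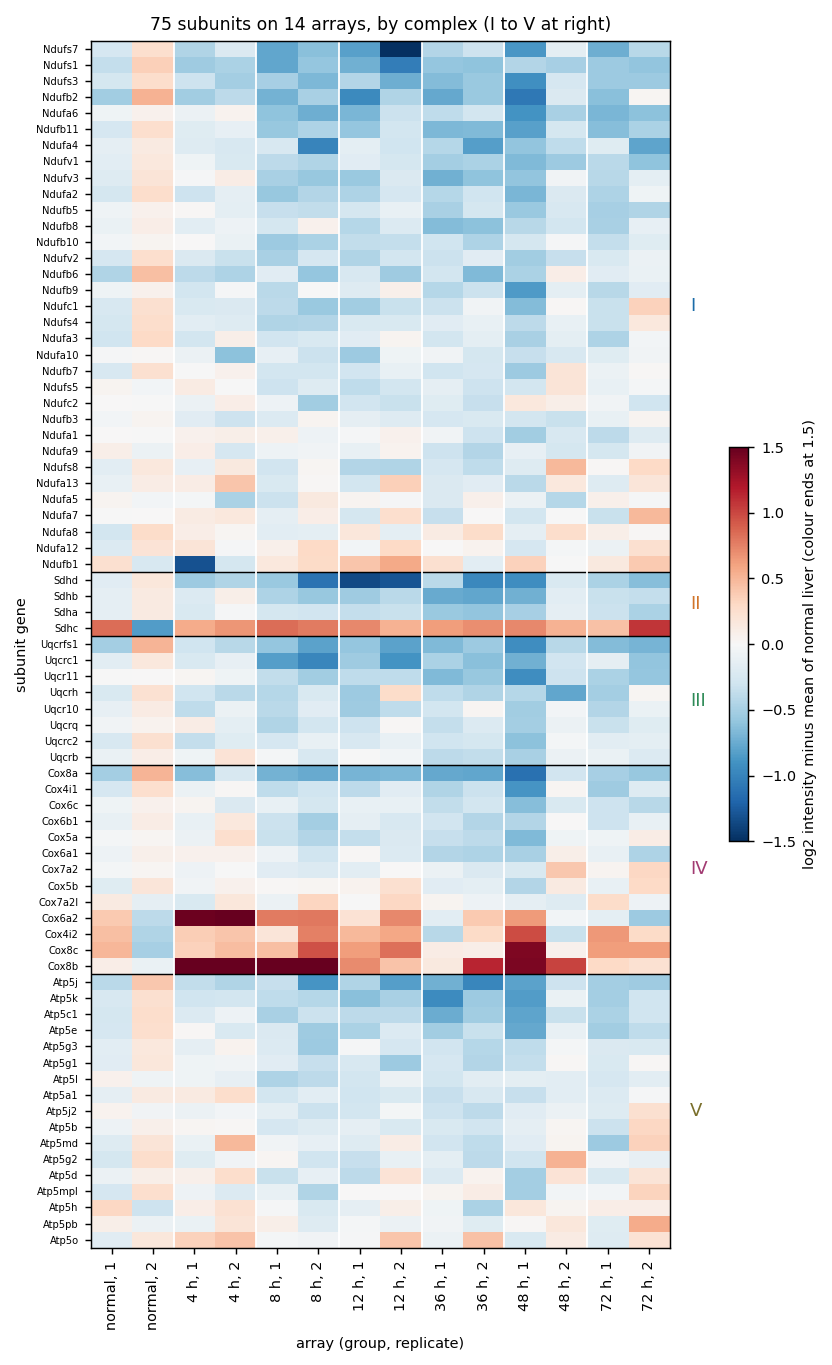
Log2 difference of each member (rows, grouped by complex) from the mean of the normal arrays, on each of the 14 arrays (columns). The colour ends at 1.5. The second array of normal liver is brighter than the first in most rows, and Cox8b (at 4 and 8 h) and Cox6a2 (at 4 h) stand out.

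The size of this shift leaned on the second array of normal liver. Without it the medians were 0.03, -0.14, -0.10, -0.20, -0.16 and -0.07 at the 6 times, with 32, 61, 51, 65, 60 and 45 of 75 below 0. Over all probe sets tested, 59.7%, 52.9%, 50.1%, 54.4%, 48.9% and 50% were then below 0, with medians of -0.09, -0.03, -0.00, -0.05, 0.01 and -0.00. At 4 h the members were then less often below 0 than all probe sets, 32 of 75 against 59.7%. Without the first array they were -0.20, -0.41, -0.32, -0.44, -0.39 and -0.31. At 48 h the arrays differed from each other, with a median member at -0.48 on the first and -0.09 on the second. With quantile normalization the 48 h median over all probe sets went from 0.12 to -0.00, and the members' from -0.29 to -0.11, with 47 of 75 below 0. The members' median was then -0.11 at 12 h (54 of 75 below 0, all 48.4%) and -0.04 at 72 h (44 of 75 below 0, all 48.5%).

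Values on both arrays of a time fell below both normal arrays for 9, 43, 36, 51, 28 and 29 members after 4, 8, 12, 36, 48 and 72 h. The same held for 23.8%, 25.6%, 22.9%, 20.2%, 16.3% and 17.5% of all probe sets tested. The opposite order was seen for 6, 2, 4, 1, 2 and 3 members, and for 19.4%, 29.5%, 29.4%, 26.7%, 22.9% and 27.1% of all probe sets. Separation in that sense does not take the size of the difference into account, and most of these members did not pass the test.

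Calls were few. Over the course, 2 members passed the moderated F test, Cox8b and Cox6a2, where 13.1% of all probe sets passed. At 4 h, 2 members were called (2.42% of all probe sets, 1.6% higher and 0.825% lower), both higher. At 8 h 2 were called (9.59%, 4.87% higher and 4.72% lower), Cox8b higher and Uqcrc1 lower, and 3 at 12 h (12.2%, 5.98% higher and 6.22% lower), Sdhd, Ndufs7 and Ndufs1, all lower. No member was called by limma at 36 h (4.17%, 2.28% higher and 1.89% lower), 48 h (2.32%, 1.64% and 0.685%) or 72 h (2.49%, 1.62% and 0.869%). There, 15, 6 and 7 lower members had an unadjusted limma p under 0.05. That share was not counted over all probe sets, so these counts cannot be set against it. By a 2-fold difference with no test, the selection named in the design text, 2, 1, 1, 1, 1 and 1 members were higher after 4, 8, 12, 36, 48 and 72 h, beside 5.42%, 9.2%, 11.6%, 6.29%, 6.39% and 5.61% of all probe sets. From 8 h on that member was Cox8b, which was below background on both normal arrays. At 12 and 72 h both of its arrays were below background too, so its fold there has no meaning. Lower by 2-fold were 2 members at 12 h and 0 at the other times, beside 3.89%, 6.6%, 7.52%, 3.89%, 2.14% and 2.75%. In simulated data of this design, at 8 h, the procedure recovered 17% of 100 probe sets changed by 1 on the log2 scale and 81% of 100 changed by 2. No others of the 13576 were changed there, while 9.59% were called at 8 h in the data. The adjustment depends on that share, so recovery in the data can differ.

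**Figure D2:**
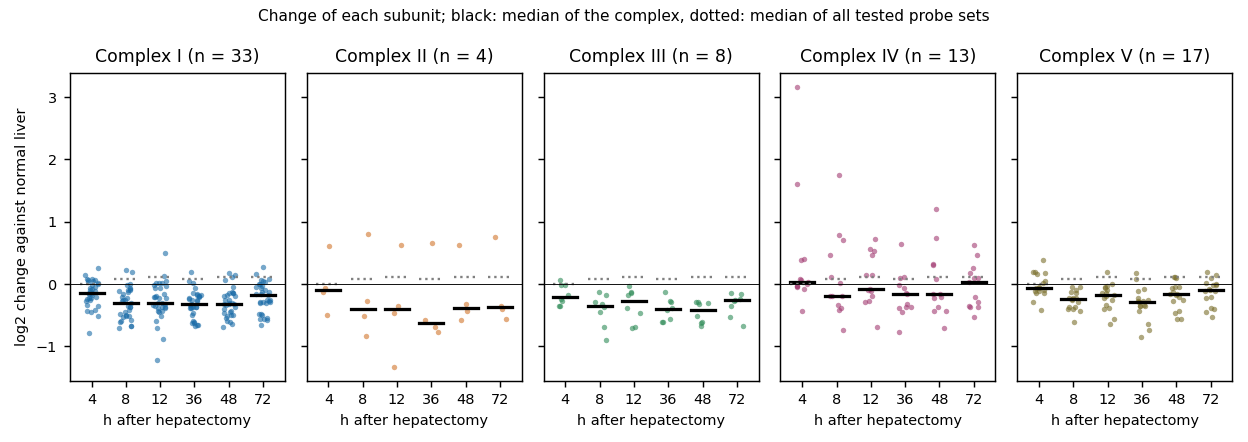
Log2 change of each tested member from normal liver at 4, 8, 12, 36, 48 and 72 h, by complex, with the median of the complex as a black line and that of all probe sets tested as a dotted line. Complexes I, II, III and V lie below 0 from 8 h in their medians, and the points far above 0 in complex IV are Cox8b and Cox6a2.

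Complex II, succinate dehydrogenase, is also an enzyme of the citric acid cycle, and its 4 subunits are all coded in the nucleus. Sdha, the flavoprotein that oxidises succinate, was 6927 and 8314 in normal liver, 6458 and 7470.3 at 4 h, 6291 and 6219 at 8 h, 5902 and 6032 at 12 h, 5145 and 5014 at 36 h, 5345 and 6920.1 at 48 h, and 6041 and 5459 at 72 h. The arrays from 8 h on all lay below both normal arrays. The change at 36 h was -0.57 (SE 0.21, limma adjusted p = 0.171), and the other Sdha probe set was at -1.07 there (SE 0.23, limma adjusted p = 0.024). That was the one call at 36 h among 61 other tested probe sets of the members.

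Sdhb, the iron-sulfur protein of complex II, was 8768 and 10535 in normal liver, 8349 and 10242 at 4 h, 6941 and 6458 at 8 h, 6623 and 7269.8 at 12 h, 5660.0 and 5583 at 36 h, 5824 and 8612 at 48 h, and 7599.9 and 7499.8 at 72 h. As for Sdha, no array from 8 h on reached the lower normal array. The change at 36 h was -0.77 (SE 0.23, limma adjusted p = 0.0933), which did not pass.

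Sdhd, a membrane anchor of complex II, was 5459 and 6969 in normal liver, 4215 and 4499.8 at 4 h, 4191 and 2827 at 8 h, 2388 and 2474 at 12 h, 4653 and 3131 at 36 h, 3203 and 5236 at 48 h, and 4419 and 3938 at 72 h. All 12 arrays after the operation were below both normal arrays, and the 12 h arrays were the lowest. It fell by 1.32 on the log2 scale at 12 h (SE 0.30, limma adjusted p = 0.0135). The call was lost without the second normal array (-1.15, limma adjusted p = 0.111) and without the processing group (-1.35, limma adjusted p = 0.092). A dimmer Sdhd probe set was at -0.14 at 12 h, so the probe sets of this gene disagreed in size.

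Sdhc, the other membrane anchor, was 3501 and 1063 in normal liver. Of the 12 later arrays, 10 lay between these values and 2 above both, so the groups overlapped at each time. Its changes of 0.61 to 0.81 were not called and rest on the low second normal array. The other Sdhc probe set went the other way at every time, with -0.49 at 4 h and -0.71 at 36 h.

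**Figure D3:**
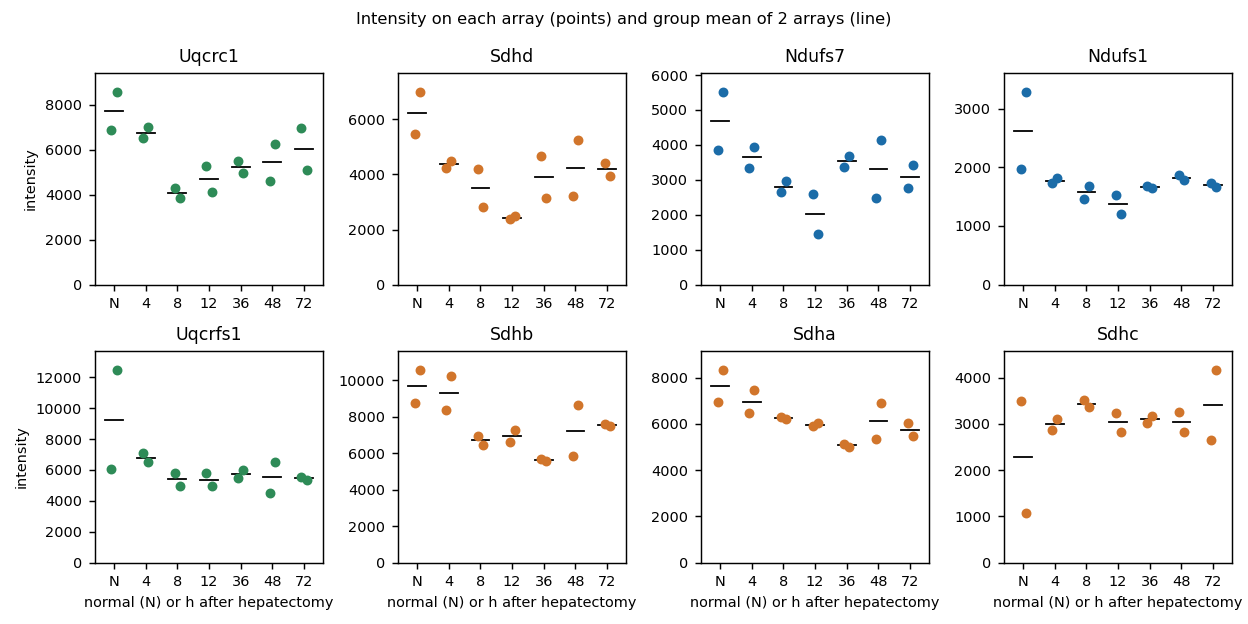
Intensity of Uqcrc1, Sdhd, Ndufs7, Ndufs1, Uqcrfs1, Sdhb, Sdha and Sdhc on each array by time (points), with the mean of the 2 arrays (line). Sdhd and Ndufs7 are lowest at 12 h and Uqcrc1 at 8 h; for Sdhc the normal arrays lie at 3501 and 1063.

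In complex I, 31 of 33 members were below 0 at 8 h and 27, 30, 29 and 26 at the later times, with medians between -0.32 at 48 h and -0.17 at 72 h. Of the 33, 23 were below normal liver at all 5 times from 8 h. The 2 members called belong to the arm that carries electrons. Ndufs7, which holds the last iron-sulfur cluster before ubiquinone, was 3846 and 5501 in normal liver, 3344 and 3941 at 4 h, 2653 and 2957 at 8 h, 2586 and 1459 at 12 h, 3371 and 3692 at 36 h, 2476 and 4138 at 48 h, and 2755 and 3423 at 72 h. Its arrays at 8, 12, 36 and 72 h were below both normal arrays, and the second 12 h array was the lowest of all. It fell by 1.22 on the log2 scale at 12 h (SE 0.32, limma adjusted p = 0.0276). The other Ndufs7 probe set was at -1.13 at 12 h (limma adjusted p = 0.0509). The call was lost without the second 12 h array (-0.82, limma adjusted p = 0.171) and without the second normal array (-0.96, limma adjusted p = 0.205).

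Ndufs1, the largest subunit of complex I and a carrier of iron-sulfur clusters, was 1966 and 3274 in normal liver, 1731 and 1813 at 4 h, 1460.4 and 1686 at 8 h, 1525 and 1207 at 12 h, 1679 and 1649 at 36 h, 1862 and 1778 at 48 h, and 1728 and 1663 at 72 h. Every array after the operation was below both normal arrays, and the first normal array was much closer to them than the second. It fell by 0.88 on the log2 scale at 12 h (SE 0.25, limma adjusted p = 0.0401). This call was lost when any of 10 of the 14 arrays was left out, with -0.52 (limma adjusted p = 0.311) without the second normal array.

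Ndufv1, which binds NADH, was not called at any time, and its largest change was -0.60 at 48 h (SE 0.21, limma adjusted p = 0.197). Ndufs3, another core subunit, lay between -0.41 and -0.60 at the 6 times. Ndufa6, an accessory subunit, was 4355 and 4743 in normal liver, 4278 and 4733 at 4 h, 2962 and 2714 at 8 h, 2794 and 3625 at 12 h, 3475 and 3741 at 36 h, 2419.9 and 3215 at 48 h, and 2805 and 2953 at 72 h. Its normal arrays were close together, the 4 h arrays overlapped them, and all later arrays lay below. Its changes of -0.67 at 8 h (limma adjusted p = 0.0792) and -0.69 at 48 h (limma adjusted p = 0.163) did not pass.

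Other accessory subunits differed in level of change, and none was called. Ndufb11 lay below normal liver at all 6 times, between -0.16 and -0.66, and Ndufa8 and Ndufa12 lay between -0.15 and 0.20. Ndufa4, named as a complex I gene but since assigned to complex IV, was at -0.62 at 8 h and -0.63 at 36 h without a call. Ndufb1, whose probe set is dim, was the lowest member at 4 h (-0.79, SE 0.32, limma adjusted p = 0.291) and above normal liver at 12 h (0.50). Its first 4 h array, at 65.0, was below background, and the change was -0.27 without that array and -1.31 without the other.

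All 8 members of complex III were below normal liver at each of the 5 times from 8 h, and the complex median was -0.35, -0.28, -0.40, -0.41 and -0.26 at these times. Uqcrc1, a core protein of the matrix side, was 6859.5 and 8536 in normal liver, 6513 and 6996 at 4 h, 4278 and 3860.2 at 8 h, 5278 and 4098 at 12 h, 5471 and 4938 at 36 h, 4613 and 6258 at 48 h, and 6979 and 5078 at 72 h. The 8 h arrays were the lowest pair, and the values at 4 and 72 h overlapped normal liver. It fell by 0.90 on the log2 scale at 8 h (SE 0.25, limma adjusted p = 0.0409). This call was lost when any of 7 arrays was left out, with -0.75 without the second normal array (limma adjusted p = 0.25), and under quantile normalization (-0.77, limma adjusted p = 0.0517). With the processing group as a block it was also lost (-0.77, limma adjusted p = 0.0732), as without that group (-0.83, limma adjusted p = 0.253).

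Its partner core protein Uqcrc2 stayed between -0.15 and -0.32. Uqcrfs1, the Rieske iron-sulfur protein that takes electrons from ubiquinol, was 6077 and 12453 on the normal arrays and 4518 to 7093 on the 12 later arrays. Its changes of -0.60 to -0.69 from 8 h on were not called, and most of that distance is to the second normal array. Uqcr11, a small subunit, had normal arrays that agreed closely, 7331 and 7441, and later arrays of 5699 and 5110.2 at 8 h, 5675 and 5681 at 12 h, 4646 and 4956 at 36 h, 3835 and 5920.1 at 48 h, and 5303 and 4928 at 72 h. Those 10 arrays all lay below normal liver, and the changes were not called (-0.63 at 48 h, SE 0.23, limma adjusted p = 0.233).

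Complex IV, cytochrome c oxidase, was the mixed one: of its 13 tested members, 5 were below normal liver at all 5 times from 8 h. The members above normal liver at 8 and 12 h were Cox4i2, Cox6a2, Cox8b and Cox8c, which are forms of other tissues, and Cox5b and Cox7a2l. At 36 h every tested form found in most tissues lay below normal liver. At 72 h Cox5a, Cox5b, Cox7a2 and Cox7a2l lay above it. Its median was 0.03, -0.19, -0.08, -0.16, -0.16 and 0.03 after 4, 8, 12, 36, 48 and 72 h, and under quantile normalization it was above 0 at 48 h (0.035) and at 72 h (0.16). Differences between complexes were not tested. Among the forms found in most tissues, Cox4i1 reached -0.43 at 48 h (SE 0.30), Cox5a -0.39 at 8 h (SE 0.24) and Cox6a1 -0.45 at 36 h (SE 0.24), none of them called. Cox5b lay between -0.16 and 0.15 and Cox7a2 between -0.19 and 0.18. The tested probe sets of Cox5b disagreed. Another of similar brightness lay between -0.65 and -0.35, a dim one between 0.18 and 0.90, and the rest between -0.44 and 0.03. Other Cox5a probe sets were at -0.06 and 0.40 at 8 h, so they did not share its fall there. None of these other probe sets was called. Cox7a2l, which helps join complexes III and IV into larger assemblies, lay between -0.16 and 0.15. Its other probe sets, of similar brightness, lay between 0.35 and 0.57 at 4, 8 and 12 h without a call.

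The muscle forms behaved differently. Cox8b, the muscle and brown fat form of the smallest subunit, was 15.8 and 6.8 on the normal arrays, 463 and 653 at 4 h, 183 and 163 at 8 h, 54.7 and 34.5 at 12 h, 18.5 and 93.2 at 36 h, 124 and 80.2 at 48 h, and 26.8 and 22.6 at 72 h. Both normal arrays, both 12 h arrays and both 72 h arrays were below background, and so was the first 36 h array. Against background, Cox8b was at least 9.78-fold higher at 4 h, at least 3.06-fold at 8 h and at least 1.77-fold at 48 h. In the fit it rose by 3.16 at 4 h (SE 0.31, limma adjusted p = 0.000232) and 1.75 at 8 h (SE 0.31, limma adjusted p = 0.0045), and both calls held when any array was left out and under quantile normalization. Cox8b passed the filter narrowly, with a mean of 138.5 over all arrays against 128.8. Only its 4 and 8 h arrays were above 128.8, so it was tested because of the times at which it was high. That limit holds for each of its calls. Cox8b is too dim to be tested at the stricter filter. The rise of 1.21 at 48 h was not called (limma adjusted p = 0.0717).

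Cox6a2, the heart and skeletal muscle form of subunit VIa, was 349.9 and 178 in normal liver, 803 and 965 at 4 h, 474 and 479 at 8 h, 301 and 453 at 12 h, 221 and 349.6 at 36 h, 423 and 245 at 48 h, and 222 and 154 at 72 h. The arrays of 4 and 8 h were above both normal arrays, and those of the later times overlapped them. It rose by 1.60 at 4 h (SE 0.33, limma adjusted p = 0.0267). The call was lost without the second normal array (1.20, limma adjusted p = 0.237), without either 4 h array (limma adjusted p = 0.121 and 0.232) and without the processing group (limma adjusted p = 0.0712).

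Between the mean of the early times (4, 8 and 12 h) and the late times (36, 48 and 72 h), 2 members were called, beside 15.9% of all probe sets. Cox8b was lower late by 1.12 on the log2 scale (SE 0.18, limma adjusted p = 0.0012) and Cox6a2 by 0.93 (SE 0.19, limma adjusted p = 0.00644). As 5 of the 12 arrays behind the Cox8b value were below background, its size depends on the constant added before the log and is no bound. Cox7a1, the muscle form of subunit VIIa, was not tested. Its intensity was 89.0 and 84.3 in normal liver and 204 and 147 at 4 h, and on the 10 later arrays it ranged from 39.0 to 126.

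Skeletal muscle transcripts were also higher at 4 and 8 h. Of 23 measured muscle markers, from which Cox6a2 was left out, 18 were tested; 15 rose at 4 h (median change 3.11), 14 at 8 h (2.41) and 1 at 12 h (0.88), and none was called later. Their summed intensity was 2456 and 1206 on the normal arrays, 23978 and 22472 at 4 h, 15526 and 14591 at 8 h, 4636 and 4111 at 12 h, and 1699 to 5021 on the arrays of 36, 48 and 72 h. Of the 23, 9 markers, among them Acta1, Mb, Myl1, Tnnc2 and Tnni2, were below background on both normal arrays. Acta1, skeletal muscle actin, was 26.4 and 7 in normal liver, 5185 and 4536 at 4 h, 3465 and 3461 at 8 h, 682 and 445 at 12 h, and 45.8 and 901 at 36 h, so the second 36 h array was the higher one, as for Cox8b. At 48 h the markers and Cox8b differed: Acta1 was 29.9 and 18.3, 10 markers were below background on both arrays, and Cox8b was above it on both. Of 8 measured fat cell markers, Ucp1, which marks brown fat, and Lep were below background in all 7 groups. Cidea and Pparg were below background on both 4 h arrays, and Elovl3 was at -0.12 at 4 h and -1.59 at 8 h. Fabp4, Retn and Adipoq were higher at 4 and 8 h, but not only then. Retn was at 1.27 at 4 h (limma adjusted p = 0.0653), 1.59 at 48 h (limma adjusted p = 0.0215) and 1.37 at 72 h (limma adjusted p = 0.0456). Fabp4 was 262 and 275 in normal liver and 829 and 715 at 4 h, and rose by 1.35 at 4 h (SE 0.29, limma adjusted p = 0.0293) and by 2.38 at 8 h. Adipoq was above background on both 4 h arrays, at 142 and 101, and below it on both normal arrays. It was above background on both arrays of 8, 36 and 48 h too, at 112 and 130 at 48 h. The part of muscle and fat transcripts in the Cox8b and Cox6a2 values was not tested.

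**Figure D4:**
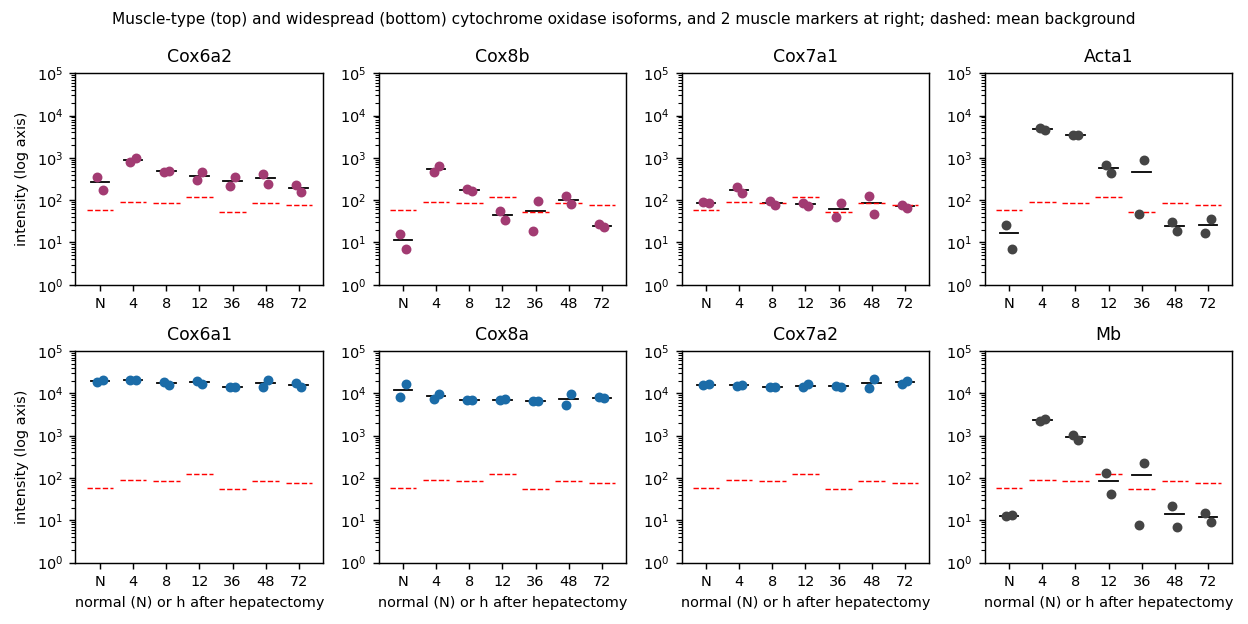
Intensity (log axis) of the muscle forms Cox6a2, Cox8b and Cox7a1 with Acta1, and of Cox6a1, Cox8a and Cox7a2 with Mb, on each array by time; the dashed line is the mean background. Cox8b and Cox6a2 are highest at 4 h, the time at which Acta1 (5185 and 4536) and Mb (2189 and 2500.3) are highest too.

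Cox8a, the form of the same subunit found in most tissues, was 8077 and 16437 in normal liver, 7387 and 9754 at 4 h, 7041 and 6786 at 8 h, 7058 and 7209 at 12 h, 6761 and 6699 at 36 h, 5266 and 9424 at 48 h, and 8151 and 7765 at 72 h. Most of its arrays stood close to the first normal array and well under the second. Its largest change was -0.77 at 36 h (SE 0.34, limma adjusted p = 0.243), and the other tested Cox8a probe set was at -0.46 there. The 250 bases before the start of Cox8b and Cox8a are shown because these 2 genes code for forms of the same subunit and their values differ. They are from RefSeq, assembly GRCm38.p6, Cox8b at chr7:140900447-140900696 and Cox8a at chr19:7217617-7217866, both on the minus strand and read along the gene. Capitals mark a match to a searched motif.
Cox8b: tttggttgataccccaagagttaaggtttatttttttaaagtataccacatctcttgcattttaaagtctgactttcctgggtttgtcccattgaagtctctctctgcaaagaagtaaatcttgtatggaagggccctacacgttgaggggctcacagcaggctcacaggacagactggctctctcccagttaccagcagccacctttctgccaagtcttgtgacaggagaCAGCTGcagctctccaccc
Cox8a: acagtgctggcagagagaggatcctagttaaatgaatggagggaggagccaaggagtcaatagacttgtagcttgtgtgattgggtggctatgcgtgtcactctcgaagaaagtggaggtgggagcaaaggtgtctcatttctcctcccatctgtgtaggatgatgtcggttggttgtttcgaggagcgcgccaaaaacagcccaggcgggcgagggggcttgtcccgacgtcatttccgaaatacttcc
The Cox8b stretch holds CAGCTG, an E-box of the kind that muscle regulators of the MyoD family bind, from base -19 relative to the start. CAGCTG was in 13.0% of all 32851 promoters searched, and a part of this match in the Cox8b values was not tested. The Cox8a stretch holds none of the 7 motifs searched.

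The remaining complex IV forms were low or variable. Cox4i2, a form best known from lung, reached 0.53 at 12 h (SE 0.42), and Cox8c, known from testis, 0.73 at 48 h (SE 0.40). Neither was called, and both were much dimmer on the second normal array (106 against 246, and 459 against 968). The Cox8c value rests on the first 48 h array (1861 against 706), and was 0.070 without that array and 1.40 without the other. Cox6b2, also a testis form, was 135 and 61.4 in normal liver and 194 and 228 at 72 h and was not tested. Cox7c, a subunit of most tissues, was above background on 3 of 14 arrays, so its probe set gave no usable course.

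In complex V, 17 of 17 members were below 0 at 8 h and 15, 15, 14 and 12 at the later times, and limma called none of them at any time. The same direction was seen for 11 of the 17 at all 5 times from 8 h. From 8 h on its median was -0.23, -0.18, -0.29, -0.16 and -0.10, and under quantile normalization it was above 0 at 48 h (0.042) and 72 h (0.075). The catalytic subunit Atp5b was 11705 and 13119 in normal liver, 12649 and 12566 at 4 h, 10392 and 10800.0 at 8 h, 11270.4 and 10594 at 12 h, 10528 and 10164 at 36 h, 11247 and 12665 at 48 h, and 9870.4 and 15328 at 72 h. Its arrays at 8, 12 and 36 h were below normal liver and those of the other times overlapped it, with no change beyond -0.26 (36 h, SE 0.23).

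Its partner Atp5a1 lay at 0.20 at 4 h and -0.11 to -0.29 later (SE 0.20). Atp5c1, the rotating central stalk, reached -0.63 at 36 h (SE 0.24, limma adjusted p = 0.187). The lowest member of the complex was Atp5j, of the peripheral stalk, at -0.85 at 36 h (SE 0.30, limma adjusted p = 0.152). Its arrays were 7217 and 12685 in normal liver and 5763 and 4820.4 at 36 h. Atp5o, also of the stalk, lay between -0.05 and 0.39, and the 3 genes of the proton-carrying ring, Atp5g1, Atp5g2 and Atp5g3, lay between -0.39 and 0.11.

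Other probe sets of the same genes also lay below normal liver in their medians. Their median change was -0.09, -0.20, -0.09, -0.19, -0.20 and -0.13 after 4, 8, 12, 36, 48 and 72 h, over 61 probe sets of 39 genes. At these times 34, 47, 38, 46, 38 and 43 of the 61 had the sign of their gene's brightest probe set.

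Promoters were searched for sites of regulators known for respiratory genes. Of the 78 members, 64 were found in the RefSeq promoter table, with 69 promoters, and 7 motifs were looked for on both strands in the 250 bases before the start. The palindromic site of the factor NRF1, shown in capitals in the lines for it, was in 3 of the 69 (4.35%) and in 0.782% of all 32851 promoters. CCGGAAG, an ETS site of the kind that GABP binds, was in 12 (17.4%) and in 6.91% of all. TCAAGGTCA, the site of estrogen-related receptors, was in 1 (1.45%, all 0.387%) and AAGATGGC, of YY1, in 1 (1.45%, all 1.56%). GGGCGG, of SP1, was in 33.3% (all 32.7%), TATAAA in 10.1% (all 12.4%) and CAGCTG in 8.70% (all 13.0%). No motif is contained in another. A match is a description of the letters and not a shown binding site.

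Stretches of 30 bases around the NRF1 matches and around the ETS matches of 5 members described here show how the letters lie (GRCm38.p6, read along the gene, match in capitals).
Atp5k, NRF1: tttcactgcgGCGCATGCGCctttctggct
Atp5g2, NRF1: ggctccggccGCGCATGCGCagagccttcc
Cox6a1, NRF1: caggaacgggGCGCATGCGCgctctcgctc
Cox6a1, ETS: cgtccccatttccgCTTCCGGcgcgccggt
Sdhd, ETS: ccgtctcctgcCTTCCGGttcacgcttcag
Ndufs3, ETS: cccgcgtccgcCCGGAAGaagagtcactgc
Uqcr11, ETS: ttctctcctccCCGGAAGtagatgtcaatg
Atp5j, ETS: agctgagggacCCGGAAGcacttaccctcc
These are at chr5:108434430-108434459 for Atp5k, chr15:102671070-102671099 for Atp5g2, chr5:115349101-115349130 and chr5:115348959-115348988 for Cox6a1, chr9:50603877-50603906 for Sdhd, chr2:90904730-90904759 for Ndufs3, chr10:80406869-80406898 for Uqcr11 and chr16:84835019-84835048 for Atp5j, all on the minus strand. The 12 members with an ETS match ranged from -1.32 (Sdhd) to -0.03 (Atp5h) at 12 h and from -0.85 (Atp5j) to -0.22 (Atp5l) at 36 h. Members with and without a match were not compared.

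Genes that work beside the complexes were counted in the same fit. Of all probe sets tested, 2.42%, 9.59%, 12.2%, 4.17%, 2.32% and 2.49% were called after 4, 8, 12, 36, 48 and 72 h. Of 34 tested assembly factors, which build the complexes, limma called Ttc19 at 8 h, 3 genes at 12 h, 2 at 36 h, Ttc19 again at 72 h, and none at 4 or 48 h. Their median was -0.33 at 12 h and 0.08 at 36 h. Acad9, needed for complex I assembly, was 668 and 574 in normal liver, 412 and 429 at 8 h, 222 and 133 at 12 h, and 644 and 473 at 36 h. It fell by 1.56 on the log2 scale at 12 h (SE 0.30, limma adjusted p = 0.00622), and its values at 36 h overlapped normal liver.

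Coa3, needed for complex IV assembly, was 1716 and 2638 in normal liver, 1227 and 721 at 12 h and 2622 and 2589.5 at 36 h. It fell by 1.13 at 12 h (SE 0.29, limma adjusted p = 0.0242) and was back in the range of normal liver at 36 h. Sco2, a copper chaperone of complex IV, was 1807 and 1977 in normal liver and 515 and 534 at 36 h. It fell by 1.74 there (SE 0.32, limma adjusted p = 0.00899). Ttc19, a complex III factor, rose at 8, 12, 36 and 72 h, by 1.33 at 36 h (SE 0.24, limma adjusted p = 0.00804). Late against early times, 6 assembly factors were higher and 1 lower, where 9.92% and 5.96% of all probe sets were.

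Of the chain genes outside the name rule, 9 were tested, among them Cyc1 and Cycs, and none was called at any time by limma, and their median was -0.42 at 12 h. Cyc1, the cytochrome of complex III, lay between -0.28 and 0.02. Cycs, cytochrome c itself, lay above normal liver at every time, with 0.93 at 12 h (SE 0.31, limma adjusted p = 0.07), which was not called.

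Among 14 regulators of mitochondrial biogenesis, Pprc1, a growth-induced relative of the coactivator PGC-1alpha, was 125 and 158 in normal liver, 279 and 378 at 8 h, and 457 and 429.5 at 12 h. It rose by 0.95 at 8 h (SE 0.25, limma adjusted p = 0.0313) and by 1.34 at 12 h (SE 0.25, limma adjusted p = 0.00486). Esrra, a nuclear receptor that acts on respiratory genes, was 413 and 289.8 in normal liver and 158 and 143 at 12 h. It fell by 0.96 there (SE 0.23, limma adjusted p = 0.0188). Nrf1 and Ppargc1a, which codes for PGC-1alpha, were not called at any time. Tfam, which starts transcription of mitochondrial DNA and packs it, was at -0.92 at 4 h (SE 0.24, limma adjusted p = 0.0755) and higher late than early (0.58, SE 0.14, limma adjusted p = 0.015).

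Of 20 import genes, Tomm20, a receptor of the outer membrane, was 1630.1 and 931 in normal liver, 3269 and 3349.5 at 8 h, 4561 and 4157 at 12 h, 3409.7 and 3949 at 36 h, and 3011 and 2752 at 48 h. It rose at these 4 times, by 1.77 at 12 h (SE 0.28, limma adjusted p = 0.0019). Timm10 also rose, at 12 h (0.88, SE 0.23, limma adjusted p = 0.026). Of 74 mitochondrial ribosomal proteins, which translate the subunits coded in mitochondrial DNA, limma called 5 lower at 12 h and none at the other times. At 12 h 6.22% of all probe sets were called lower, and 35 of the 74 lay below 0. The median of these genes was between -0.04 and 0.11 at the 6 times. Of 15 genes of the citric acid cycle and pyruvate dehydrogenase, 1 was called, Fh1 at 12 h (0.88, SE 0.26, limma adjusted p = 0.0476). None of 13 genes of fatty acid oxidation was called at any time, with medians of -0.14 to -0.35.

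**Figure D5:**
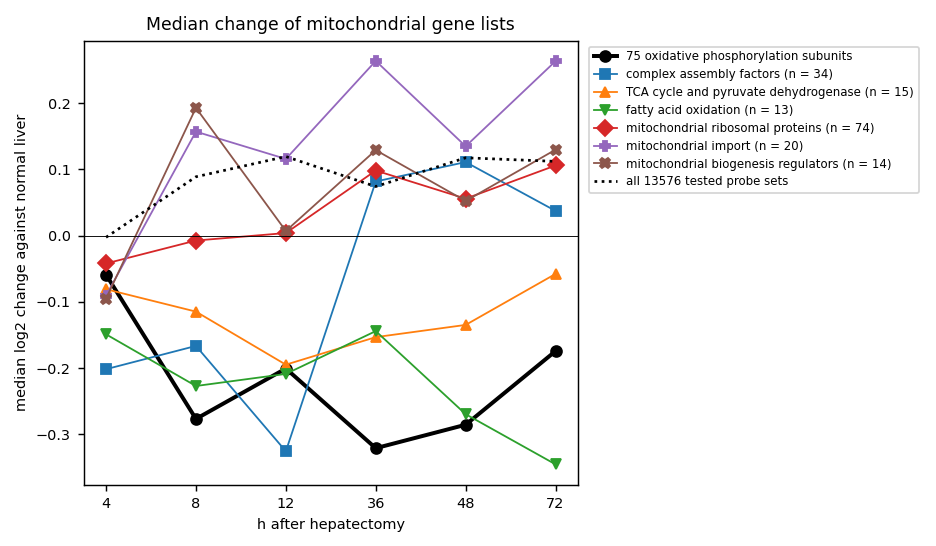
Median log2 change from normal liver of the tested members and of each list of other mitochondrial genes, at the 6 times (spaced evenly on the axis). The members lie between -0.32 and -0.06, the ribosomal proteins between -0.04 and 0.11, and the assembly factors go from -0.33 at 12 h to 0.08 at 36 h.

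Markers of cell types and tissues changed over the same arrays. The counts called are to be read beside the shares of all probe sets called at each time, given above. The 10 tested hepatocyte markers had medians of 0.08, -0.22, -0.15, -0.59, -0.39 and -0.34 after 4, 8, 12, 36, 48 and 72 h, and none was called at a single time by limma. Their summed intensity was 349639 and 460236 on the normal arrays, so the second was the higher one, as for the members, and 230341 to 402901 on the arrays from 8 h on. Of 18 pancreatic acinar markers, 10 rose at 4 h and all 18 at 8 h, with a summed intensity of 2739.8 and 1488 in normal liver and 347921 and 320501 at 8 h, where the members' median was -0.28 on both arrays. On the 36 h arrays that sum was 1452 and 51580, while the median member stood at -0.30 and -0.31. Of 12 Kupffer cell and macrophage markers, 2 were lower at 8 h and 5 at 12 h, and 1, Marco, was higher at 36 h. Of 7 neutrophil markers, S100a8 was higher at 4, 8, 12 and 36 h and S100a9 at 8 h. Of 8 endothelial markers 1, Lyve1, was higher at 12 h, and none of 3 erythroid markers was called at any time by limma. Of 3 tested fat cell markers, Fabp4 or Retn was called higher at every time. The third, Elovl3, lay below normal liver at every time, between -0.12 at 4 h and -1.85 at 72 h, and was not called. The part of these differences in the members' values was not tested.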

How the data were processed

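The deposited values are intensities on a linear scale, 1 per probe set and array, scaled by the authors so that each array's mean, without the extreme 2% at both ends, was about 500.2; the sources used here do not name the software for this. Per the series' design text, the authors used GeneSpring 7.2 to select 2-fold differences from normal liver. Symbols came from the array annotation: 20380 probe sets had 1 symbol, 691 several and 1555 none; 20351 were matched to assembly GRCm38.p6 and 0 changed. The 64 control probe sets were left out.

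The deposited scaling was kept, 57 (the 25th percentile) was added and log2 was taken. Probe sets whose mean reached the 40th percentile (128.8) entered the tests. A model of 7 groups was fitted in limma 3.58.1 (R 4.3.3), with 7 residual and 5.08 prior degrees of freedom, giving each time against normal liver, late against early times and a moderated F test. Background was the 95th percentile of 27 bacterial controls (43.56 to 138.3); a fold with one side below it is a lower bound. Promoters were searched in Python 3.11.15. The procedure was tested on simulated data.

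Members named were core subunits, isoforms of complex IV, those called, up to 5 each way per contrast, and the 3 with the smallest F p per complex; other genes, such as Sdhc, Ndufs3, Ndufa4 and Atp5o, were named after their values were seen. The members and lists were chosen with earlier results of these data known. The lists were of skeletal muscle, acinar, adipocyte, hepatocyte, Kupffer cell, neutrophil, erythroid and endothelial markers, assembly factors, other chain genes, citric acid cycle, biogenesis, fatty acid oxidation, ribosomal proteins and import. As alternatives, other pseudocounts (14.25 and 228), quantile normalization, the 60th percentile or no filter, array weights, a block for the replicate number or for the processing group, a fit without that group, probe sets averaged per gene, a fit to the 4 arrays of a comparison, a 2-fold rule with no test and leaving out each array were tried.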

Additional observations from a re-analysis of the deposited data

How the results depend on the processing

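Under quantile normalization the median change was -0.11, -0.18, -0.11 and -0.043 over all members after 12, 36, 48 and 72 h, -0.18 at 48 h in complex I, -0.17 at 48 h and -0.20 at 72 h in complex II, and -0.22 at 48 h in complex III. In complex IV it was 0.035 at 48 h and 0.16 at 72 h, and in complex V -0.13 at 36 h, 0.042 at 48 h and 0.075 at 72 h; Cox5b at 48 h turned to 0.067. Without the processing group the median was -0.33 at 72 h in complex I, -0.45 at 12 h in complex III, and -0.29 at 36 h and -0.12 at 72 h in complex IV. With the 60th percentile filter complex IV was at -0.32 at 36 h and -0.21 at 72 h, and with probe sets averaged per gene at -0.015 at 8 h and 0.026 at 48 h. The number of members called became 1 at 4 h without a filter, with the 60th percentile filter, without the processing group and with only the 4 arrays compared. It became 1 at 8 h with quantile normalization, a pseudocount of 14.25, no filter, the processing block, without the processing group, with only 4 arrays and by 2-fold without a test. At 12 h it became 0 with array weights, without the processing group and with only 4 arrays (limma). In the fit as reported, 7 lower members had an unadjusted limma p under 0.05 at 12 h, a count without a share over all probe sets. By 2-fold, 2 members were lower at 12 h. The number called was 1 at 36 h with a pseudocount of 228, the mean of probe sets and 2-fold. At 48 h it was 1 with a pseudocount of 14.25 and 2-fold, and at 72 h 1 by 2-fold. Late against early and over the course it was 1 with the 60th percentile filter, at which Cox8b is not tested, and without the processing group. The other causes were not tested.

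Leaving out 1 array in turn, calls ranged from 1 to 3 at 4 h, 1 to 6 at 8 h, 0 to 7 at 12 h, 0 to 1 at 36 h, 0 to 2 at 48 h, 0 to 2 at 72 h, 2 to 3 late against early and 1 to 3 over the course. Medians at 4, 8, 12, 36, 48 and 72 h ranged from -0.20 to 0.028, -0.41 to -0.14, -0.32 to -0.10, -0.44 to -0.20, -0.48 to -0.093 and -0.31 to -0.068 over all members. In complex I they ranged from -0.22 to 0.013, -0.51 to -0.15, -0.37 to -0.12, -0.44 to -0.18, -0.48 to -0.13 and -0.36 to -0.060, and in complex II from -0.22 to 0.034, -0.53 to -0.27, -0.54 to -0.27, -0.78 to -0.48, -0.61 to -0.14 and -0.50 to -0.24. In complex III they ranged from -0.34 to -0.017, -0.44 to -0.17, -0.45 to -0.14, -0.57 to -0.21, -0.60 to -0.19 and -0.43 to -0.15, in complex IV from -0.053 to 0.16, -0.21 to -0.082, -0.10 to 0.0062, -0.33 to -0.16, -0.44 to 0.0074 and -0.12 to 0.027, and in complex V from -0.081 to 0.11, -0.37 to -0.14, -0.27 to -0.12, -0.42 to -0.18, -0.35 to -0.032 and -0.24 to 0.018. Cox5b at 48 h ranged from -0.44 to 0.13 and turned to 0.020 without the second normal array and to 0.13 without the first 48 h array. Cox4i1 at 48 h ranged from -0.88 without the second 48 h array to 0.029 without the first. With 1 array left in a group, that array is assumed to vary like the others.

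The replicate numbers were checked for pairing: over 21 pairs of groups, deviations of same-numbered arrays correlated at -0.19 to 0.53 (median 0.03), over 0.1 in 9. No pairing was assumed in the main fit. The processing group holds second arrays only, so some same-numbered arrays share a technical trait. With the replicate number as a block, 2 members were called at 4 h, 2 at 8 h, 3 at 12 h, 0 at 36, 48 and 72 h, 2 late against early and 2 over the course, and no call changed. Signal over background limits Cox8b, Cox7a1, Cox6b2, Cox7c and, at 4 h, Ndufb1, and 2 arrays per group limit all other values.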

Other observations

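There were 7 subunit probe sets that carry several symbols and stand outside the members, and 6 of these were bright enough to be tested. The one for Ndufa11 and Ndufa11b lay between -0.23 and 0.33 at the 6 times, and that for Ndufs6 and Ndufs6b between -0.15 and 0.03. The 2 probe sets for Ndufb4 and its copies lay between -0.32 and 0.05. The one for Ndufb2 and Adck2, which is dim, was at -1.001 at 72 h (SE 0.35, limma adjusted p = 0.184) and between -0.24 and 0.43 at the earlier times, and that for Ndufs5 and Ndufs5-ps lay between -0.11 and 0.43. None of the 6 was called. The transcripts that such a probe set measures cannot be told apart on these arrays.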
